A study of Mus musculus with 8 samples.

Results

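The 10 genes described here encode SR-related proteins of nuclear speckles, namely Srrm2, Pnisr, Acin1, Pnn, Nktr, Ppig, Srek1, Bclaf1, Clk4 and Prpf4b. Their members were all sites that the authors' deposited table of age-dependent sites assigns to these genes, 52 of its 2055 sites, from 10 of its 789 genes. The sites were chosen by measured values, since the table lists a site only where C-to-U differed between aged and young cells. No listed site had a mean C-to-U that differed by less than 0.58 on the log2 scale, and none had fewer than 25 methylated cells over both ages. Among the 52 sites the smallest absolute log2 ratio was 0.583 at Clk4, the fewest methylated cells were 26, at 1 site each of Srrm2 and Nktr, and the largest adjusted p in the authors' deposited table was 0.0334 at Pnisr. Sites outside these limits were not analysed here. The values below are therefore a description and carry no test between the ages.

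Cortex cells were profiled from mice of the genotype APOBEC1-YTH, which express the cytidine deaminase APOBEC1 joined to a YTH domain, the module by which reader proteins recognise N6-methyladenosine (m6A). The enzyme turns a C beside a methylated A into U, so that scDART-seq, the assay used, reads m6A in each cell from C-to-U changes. The aged mice were 12 to 14 months old when treatment began. Tamoxifen was given on 5 days, 1 dose of 20 mg/kg each 24 h, and the cortex was collected 7 days after the final dose. All 8 libraries were aged, as 4 lanes of each of 2 sublibraries, and are not biological replicates. The young cells came from a companion series, and their age in months, their treatment, the number of mice at either age and the promoter or cell type that drives the fusion are not stated by the labels. All aged cells came from this series and all young cells from the companion one, so age and series cannot be told apart. The table gives 1 value per age, over 846 aged and 2623 young cells, so no value has a replicate error. The share of methylated cells carries an exact (Clopper-Pearson) 95% interval over cells, which covers counting error only. A cell with no read over a site enters as unmethylated, so fewer cells with reads and fewer cells with editing cannot be told apart in a share. Reads per site are not in the table, and the read depth behind a C-to-U level is unknown. Of the 10 neuronal marker genes, 7 had a listed site, against 1 of 6 for astrocytes, 1 of 6 for oligodendrocytes, 0 of 6 for microglia and 0 of 3 for endothelium. The table lists sites and not expression, so a marker without a site may still have been expressed.

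Nuclear speckles are bodies of the nucleus in which splicing factors gather near active genes. Their proteins carry stretches rich in arginine and serine (RS domains), and kinases of the CLK and PRP4 families phosphorylate such stretches and so govern where the proteins sit and how they act in splicing. Many transcripts of this class carry m6A in their coding exons, and some are kept in the nucleus with an intron still in place. SRRM2 is a large scaffold protein at the core of the speckle, and PNISR and pinin (Pnn) are SR-related partners found there. Acinus (Acin1) joins the exon junction complex through a complex with RNPS1 and SAP18. NKTR and PPIG are cyclophilins, prolyl isomerases with RS-rich tails. SREK1 and BCLAF1 regulate splicing, and CLK4 and PRPF4B are the kinases of the group.

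The sequences below show, for each gene, the site at which the share of methylated cells differed most between the ages, and they are given because the assay reads m6A through the base before the edited C. Each run holds 10 bases before and 10 after the edited C in the spliced GENCODE M21 transcript (GRCm38, the build called mm10), written 5′ to 3′ on the strand of the gene. The 5 capitals cover the positions of the DRACH consensus of m6A (D is A, G or T; R is A or G; H is A, C or T), and the edited C is the 4th of them.
Srrm2, chromosome 17 at 23809976, plus strand, exon 5: cagccttGTTCGagagaccag
Pnisr, chromosome 4 at 21860909, plus strand, exon 5: ctacacaGAACCgaagagagc
Acin1, chromosome 14 at 54644088, minus strand, exon 17: agaacggGAACGggaaatgga
Pnn, chromosome 12 at 59071689, plus strand, exon 9: agagaaaGAACAggaggagga
Nktr, chromosome 9 at 121749856, plus strand, exon 13: agacaaaAAACAcaaggctcc
Ppig, chromosome 2 at 69749906, plus strand, exon 14: atacagaGAACAggagtatag
Srek1, chromosome 13 at 103752503, minus strand, exon 9: agacaagGAACGggaaaaaga
Bclaf1, chromosome 10 at 20325504, plus strand, exon 5: aaattatAAACTgaaagagac
Clk4, chromosome 11 at 51267290, plus strand, exon 2: ctcaggaGAACAggcactgta
Prpf4b, chromosome 13 at 34884149, plus strand, exon 2: ctgaaatTGACAaagaaaaga

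All 10 of these sites lay in coding sequence. In 9 of them the edited C followed an A, and the Srrm2 site, where it followed a T, was the exception. The same 41 bases around each of the 52 sites occurred in no transcript of another annotated gene, and no exon of another gene covered any of them.

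The first comparison asked in how many cells these sites were called methylated, from C-to-U, at each age. Aged cells had the larger share of methylated cells at 51 of the 52 sites (98.1%, interval over sites 89.7 to 99.95). This reads against a background in which the share was higher at 75.4% of all 2055 listed sites, and at 94.7% of the 804 listed sites in coding sequence, where 50 of the 52 sites lie. Against the coding background the count is therefore close to what the table shows in general. The median share over the 52 sites was 3.43% in aged and 0.782% in young cells, and the median ratio of aged to young shares was 5.03. Over all listed coding sites the medians were 2.36% in aged and 0.801% in young cells, with a median ratio of 3.10. The intervals of the shares lay apart, with aged higher, at 47 of the 52 sites, against 47.4% of all listed sites and 63.6% of those in coding sequence. At 4 further sites the intervals overlapped, 3 of them in Srrm2 and 1 in Pnisr.

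**Figure D1:**
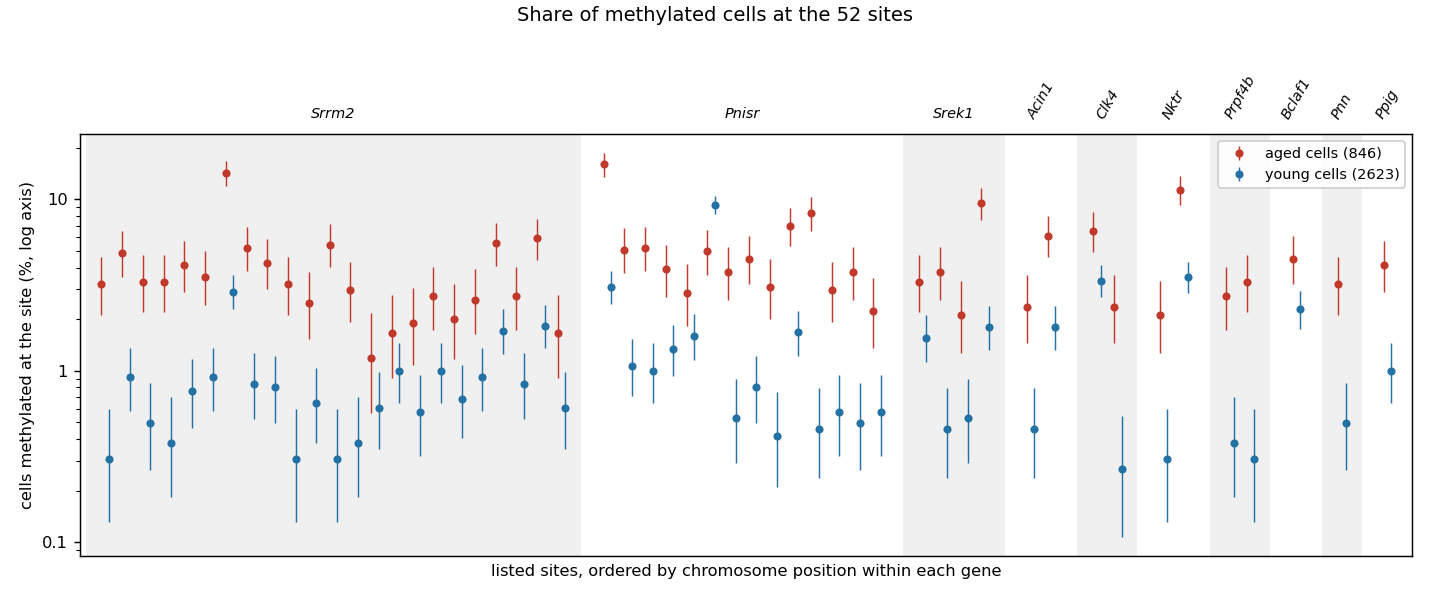
Share of cells methylated at each of the 52 sites (log axis, percent), with aged cells (red) left of young cells (blue) at each site and bars for the exact 95% interval over cells. Aged cells lie higher at every site but 1 in Pnisr, where they stand at 4.96% and young cells at 9.26%.

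Srrm2, the speckle scaffold gene, had 23 listed sites, the most of the 10, and aged cells had the higher share at all 23. Its shares ran from 1.18% to 14.2% in aged cells and from 0.305% to 2.90% in young cells. At the exon 5 site printed above, 120 of 846 aged cells were methylated (14.2%, 11.9 to 16.7), against 76 of 2623 young cells (2.90%, 2.29 to 3.61). A neighbouring site 7 bases downstream, at 23809983, had 44 methylated aged cells (5.20%, 3.80 to 6.92), against 22 methylated young cells (0.839%, 0.526 to 1.27). The 2 sites thus differed more from each other, at either age, than their intervals allow, while the ratio of aged to young was 4.90 at the first and 6.20 at the second. The largest ratio in the gene was 17.8 at 23811060 in exon 8, with 46 methylated aged and 8 methylated young cells. The smallest was 1.67 at 23815214 in exon 11, with 14 methylated aged and 26 methylated young cells and overlapping intervals. At 23816318, in the same exon, the intervals also overlapped, with 1.65% (0.908 to 2.76) in aged and 0.610% (0.349 to 0.989) in young cells.

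Pnisr, which encodes an SR-rich partner of pinin, had 14 sites, with a higher share in aged cells at 13. The printed exon 5 site had 135 methylated aged cells (15.96%, 13.6 to 18.6), against 81 methylated young cells (3.09%, 2.46 to 3.82), the largest difference in share among the 52 sites. At 21874301 in exon 11 the share was 8.27% (6.51 to 10.3) in aged and 0.457% (0.237 to 0.798) in young cells, the largest ratio of the 52, at 18.1. The exception was the site at 21871578 in exon 10, with 42 methylated aged cells (4.96%, 3.60 to 6.65) and 243 methylated young cells (9.26%, 8.18 to 10.4). At 21862085 in exon 6 the share was 2.84% (1.83 to 4.19) in aged and 1.60% (1.16 to 2.16) in young cells, with overlapping intervals. The exon 10 site is shown here because it ran opposite to all other sites of the group.
Pnisr, chromosome 4 at 21871578, plus strand, exon 10: agagaaaGAACAgcagctgtt
This site had the highest share of all 52 in young cells and the same GAACA as the Pnn, Ppig and Clk4 sites above. Its average C-to-U, read here as taken over all cells, was 1.02% in aged and 2.65% in young cells. For this site the authors' deposited table gives an adjusted p of 0.000166.

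The RS-tailed cyclophilin genes also had higher shares in aged cells. Nktr had 96 methylated aged cells (11.3%, 9.29 to 13.7) at the printed site, against 92 methylated young cells (3.51%, 2.84 to 4.28). At its second site, 178 bases upstream, 18 aged cells (2.13%) and 8 young cells (0.305%) were methylated. Ppig had 35 methylated aged cells (4.14%, 2.90 to 5.71), against 26 methylated young cells (0.991%, 0.648 to 1.45). Acin1, the exon junction complex partner, had 52 methylated aged cells (6.15%, 4.62 to 7.98) at its exon 17 site, against 47 methylated young cells (1.79%, 1.32 to 2.38). At its exon 19 site the shares were 2.36% in aged and 0.457% in young cells. Pnn had 27 methylated aged cells (3.19%, 2.11 to 4.61), against 13 methylated young cells (0.496%, 0.264 to 0.846). These 6 sites in 4 genes all had intervals that lay apart.

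The splicing regulator Srek1 had 4 sites, all with a higher share in aged cells. At the printed site, 80 aged cells (9.46%, 7.57 to 11.6) and 47 young cells (1.79%, 1.32 to 2.38) were methylated. Its other 3 sites ranged from 2.13% to 3.78% in aged and from 0.457% to 1.56% in young cells. Bclaf1 had a single site with 38 methylated aged cells (4.49%, 3.20 to 6.11), against 60 methylated young cells (2.29%, 1.75 to 2.93), a ratio of 1.96. The kinase gene Clk4 had 55 methylated aged cells (6.50%, 4.93 to 8.38) at its exon 2 site, against 88 methylated young cells (3.35%, 2.699 to 4.12). The kinase gene Prpf4b had 28 methylated aged cells (3.31%, 2.21 to 4.75) at the printed site, against 8 methylated young cells (0.305%, 0.132 to 0.600), and its second site had 2.72% in aged and 0.381% in young cells. With 7 to 14 methylated young cells at many of these sites, the ratios carry wide counting error.

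The second comparison asked how strongly the transcripts were edited in the cells that were methylated. This level is the deposited average C-to-U divided by the share. It takes that average as running over all cells, which the file headers do not state. Here the order turned round at most sites: aged cells had the higher C-to-U within methylated cells at 7 of the 52 sites (13.5%, 5.59 to 25.8) and lower at 45. The background was 31.9% higher among the 2036 listed sites with a methylated aged cell and 35.6% among those in coding sequence. The median level over the 52 sites was 2.87% in aged and 10.8% in young cells. Over all listed coding sites the medians were 11.9% in aged and 24.4% in young cells. The group was not uniform. In Srrm2 and Pnisr together 1 of 37 sites was higher in aged cells, and in the other 8 genes 6 of 15 were, so the low count came mainly from the 2 genes with the most sites.

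**Figure D2:**
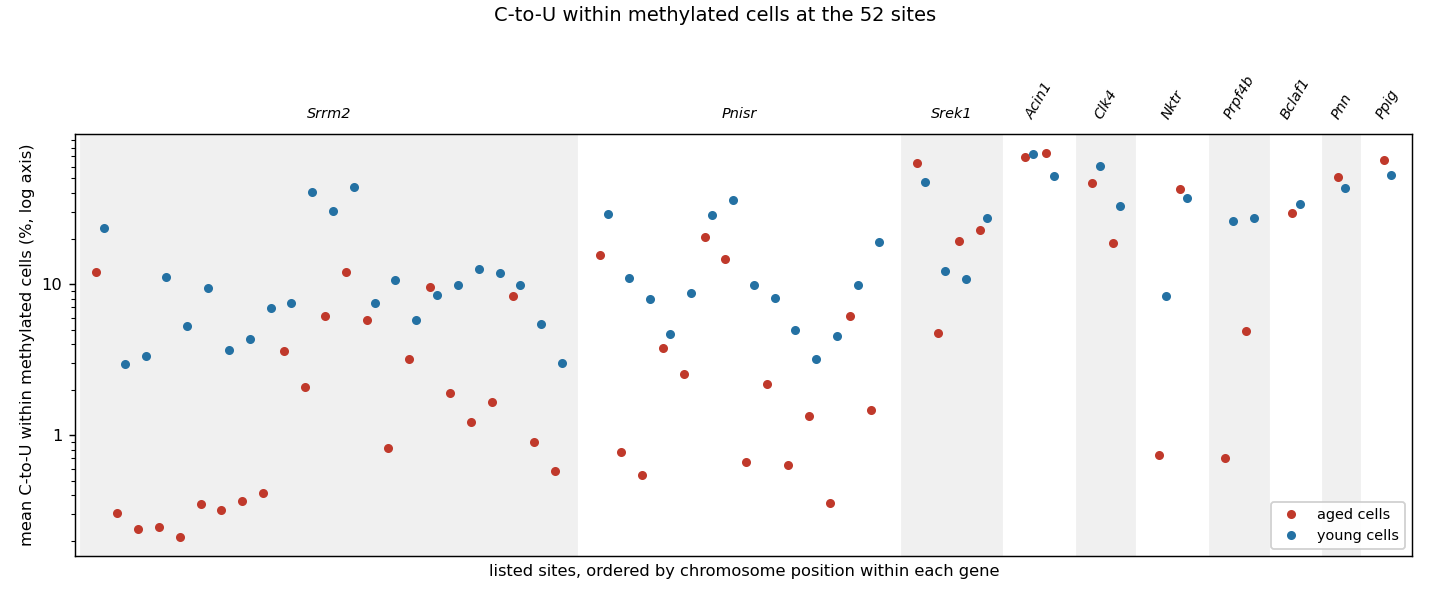
Mean C-to-U within methylated cells at each of the 52 sites (log axis, percent), aged (red) left of young (blue). Aged levels fall under 1% in Srrm2, Pnisr, Nktr and Prpf4b, while the lowest young level is 2.98%.

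In Srrm2 the median level was 1.22% in aged and 8.40% in young cells, with 1 of 23 sites higher in aged cells. That site, at 23816171 in exon 11, had 9.58% in aged and 8.40% in young cells. All 5 sites of exon 4 and all 3 of exon 5 had aged levels of 0.211% to 0.412%, against young levels of 2.98% to 11.2%. At the exon 5 site with the largest share, the level was 0.317% in aged and 3.68% in young cells. In aged cells the share was thus higher there and the mean level within methylated cells lower, and values per cell are not given. The 3 sites of exon 8 had 2.09% to 12.0% in aged and 30.6% to 43.6% in young cells, the 2 largest drops of the group among them. At 23811053 in that exon the level was 2.09% in aged and 40.4% in young cells, and at 23811067 it was 12.0% in aged and 43.6% in young cells. The 9 sites of exon 11 had 0.579% to 9.58% in aged and 2.99% to 12.7% in young cells. These ranges overlapped across sites, but site by site the aged level was lower at 8 of the 9.

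In Pnisr all 14 sites had the lower level in aged cells, with medians of 1.83% in aged and 9.28% in young cells. The printed exon 5 site had 15.6% in aged and 28.9% in young cells. A site 31 bases downstream, at 21860940, had 0.774% in aged and 10.9% in young cells. At the exon 10 site where fewer aged cells were methylated, the level was 20.6% in aged and 28.6% in young cells, so the share and the level were both lower there. In exon 11 the 8 sites ranged from 0.356% to 14.6% in aged and from 3.18% to 35.9% in young cells.

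Among the other 8 genes, Acin1, Ppig, Srek1, Pnn and Nktr had sites that were edited more strongly in aged cells. The exon 17 site of Acin1 had the largest difference, with 73.7% in aged and 51.5% in young cells, while its exon 19 site had 69.5% in aged and 73.0% in young cells. At Ppig the level was 66.1% in aged and 52.9% in young cells. The exon 11 site of Srek1, at 103744895, had 63.7% in aged and 47.4% in young cells, and the site at 103752492 had 19.4% in aged and 10.8% in young cells. The other 2 Srek1 sites were lower in aged cells, with 22.9% in aged and 27.2% in young cells at the printed site, and 4.72% in aged and 12.2% in young cells at 103752467. Pnn had 50.8% in aged and 43.4% in young cells. Nktr had 42.9% in aged and 36.97% in young cells at the printed site. At its second site the level was 0.742% in aged and 8.35% in young cells, so 2 sites in the same exon went opposite ways. Bclaf1 had 29.7% in aged and 33.9% in young cells, and Clk4 had 46.5% in aged and 60.2% in young cells in exon 2. In Prpf4b both sites were far lower in aged cells, with 4.88% in aged and 27.4% in young cells at the printed site, and 0.705% in aged and 26.3% in young cells at 34883739. No error can be given for these levels, since the table holds neither reads nor values per cell.

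Very low levels within methylated cells were found at the group's sites in aged cells. Of the 52 sites, 18 (34.6%) had an aged level under 1%, and 0 had a young level that low. Of these 18 sites, 11 lay in Srrm2, 5 in Pnisr, 1 in Nktr and 1 in Prpf4b. Over all listed coding sites, 158 of 797 (19.8%) had an aged level under 1%, and 0 of 804 a young one. Over the whole table, 486 of 2036 sites (23.9%) had an aged level under 1% and 103 of 2055 (5.01%) a young one, so such levels were not limited to aged cells outside coding sequence. The limit of 1% was chosen after the values were seen. Whether reads per cell differed between the ages was not measured, and their part in these levels was not tested.

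**Figure D3:**
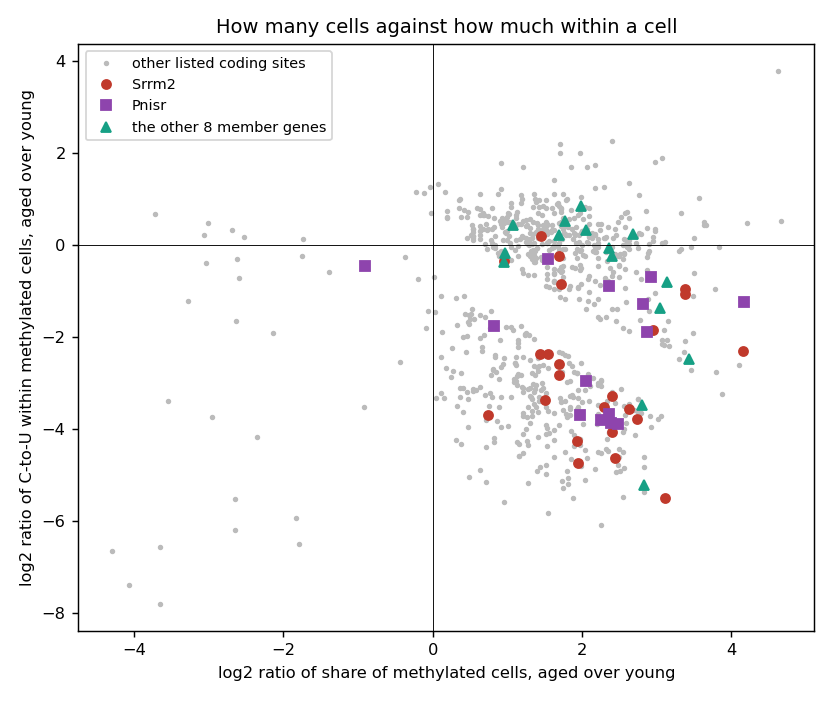
Log2 ratio (aged over young) of the share of methylated cells on the x axis against the log2 ratio of C-to-U within methylated cells on the y axis, for the 52 sites and all other listed coding sites with a methylated aged cell (grey). The empty diagonal strip is where the mean C-to-U differs by less than 0.58 on the log2 scale, which the table does not list. Most Srrm2 and Pnisr sites lie at the lower right, with a higher share of methylated cells and a lower mean level within them.

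The third measure was mean C-to-U, read as over all cells, which makes it the product of the share and the level. That the authors used it to list the sites is inferred from the smallest listed log2 ratio of 0.58. Aged cells had the higher mean at 27 of the 52 sites (51.9%, 37.6 to 65.99), against 41.5% of all listed sites and 57.8% of those in coding sequence. At 24 of the 25 sites with a lower mean, aged cells nevertheless had the higher share of methylated cells. By gene, the mean was higher at 8 of 23 sites in Srrm2 and at 6 of 14 in Pnisr, but at 13 of 15 in the other 8 genes. The 2 of those 15 that were lower were 1 in Nktr and 1 in Prpf4b. The largest mean in aged cells was at Nktr, 4.86% in aged and 1.30% in young cells (adjusted p = 1.66e-13 by the authors' deposited table). Acin1 followed with 4.53% in aged and 0.924% in young cells at exon 17 (adjusted p = 1.12e-18 by the authors' deposited table). Ppig had 2.74% in aged and 0.525% in young cells, and Pnn had 1.62% in aged and 0.215% in young cells. At the exon 5 site of Srrm2 the mean was 0.0449% in aged and 0.107% in young cells, although the share was 4.90 times higher in aged cells. For this site the authors' deposited table gives an adjusted p of 1.17e-29. The labels do not state the authors' test, so their adjusted p values cannot be assigned to the mean or to the share. The direction given for Srrm2 and Pnisr therefore depends on whether cells or editing levels are counted.

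The position of the sites along the transcripts was no part of the rule that chose the group. In Srrm2 the 22 coding sites lay between 8083 and 5886 bases before the last coding base, in exons 2, 4, 5, 7, 8 and 11 of 15. Exon 11 is 6569 bases long, and its 9 listed sites lay within 1196 bases of its start. No listed site lay in the remainder of that exon. In Pnisr the sites fell in exons 5, 6, 10 and 11 of 12, with 8 of them in exon 11, which is 1087 bases long. Of the 50 coding sites of the group, 25 lay in exons longer than 400 bases, against 271 of 804 listed coding sites. The median distance to the nearest splice junction was 119 bases in the group and 59.5 over all listed coding sites. Within 10 bases of another listed site of the same gene lay 13 of the 52 sites (25.0%), 11 in Srrm2 and 2 in Pnisr. The background was 27.5% of all listed sites and 18.3% of listed coding sites. Sites this close can lie on the same reads and are not independent. In the other 8 genes 8 of the 15 sites lay in exons over 400 bases, in Nktr (2856 bases), Pnn (2573 bases), Ppig (4741 bases), Prpf4b (1197 bases), Acin1 exon 19 (888 bases) and Bclaf1 (666 bases). The coding sites of Srek1, in exons of 309 and 145 bases, of Clk4 exon 2 (161 bases) and of Acin1 exon 17 (325 bases) lay in shorter ones.

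**Figure D4:**
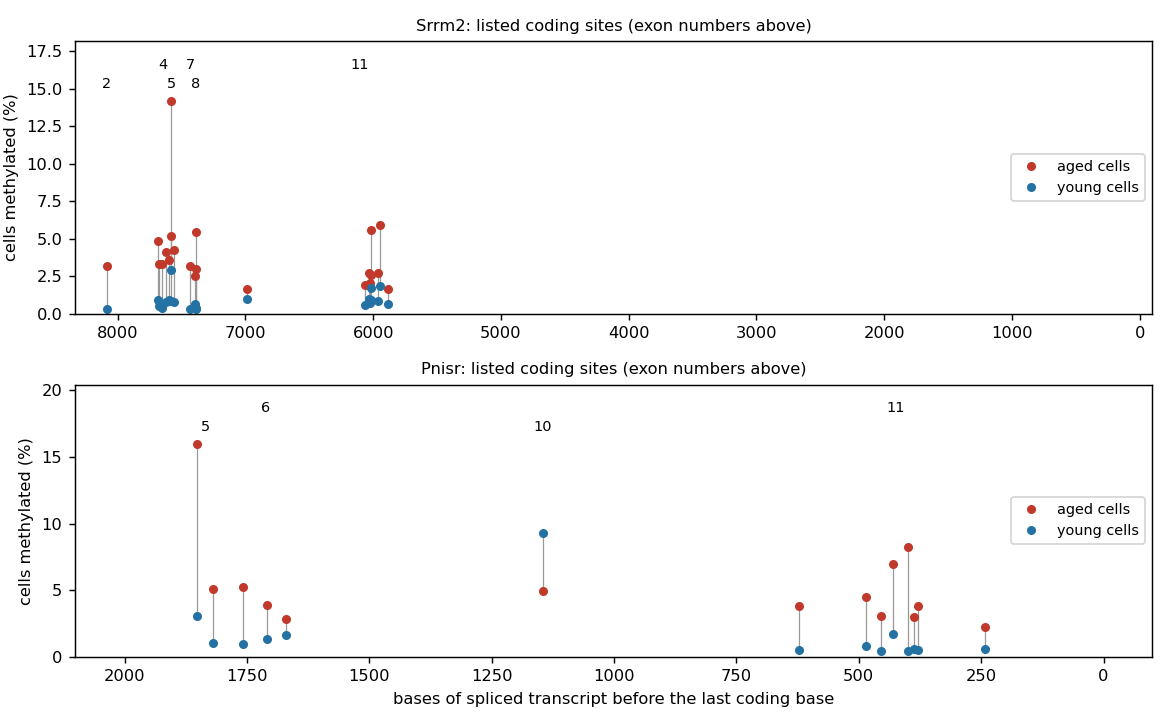
Share of methylated cells (percent) at the coding sites of Srrm2 (top) and Pnisr (bottom), by the number of bases of spliced transcript before the last coding base, with exon numbers above. Red points are aged cells and blue points young cells. The Srrm2 sites all lie 5886 bases or more before the end of the coding sequence, and the Pnisr sites spread from 1851 to 242 bases before it.

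A pair of sites lay outside coding sequence, each in an annotated transcript with a retained intron. They are shown because such reads can come from transcripts that have not been fully spliced.
Clk4, chromosome 11 at 51267438, plus strand, intron after exon 2: aaaaagtTAACAatatcatag
Srrm2, chromosome 17 at 23812203, plus strand, intron after exon 9: gagagaaCAACAaaaaaggac
The Clk4 site lay 107 bases into the intron after exon 2 of the coding transcript, and 20 aged cells (2.36%, 1.45 to 3.63) and 7 young cells (0.267%, 0.107 to 0.549) were methylated there, a ratio of 8.86. At the coding site in exon 2, 148 bases upstream, the ratio was 1.94. The level within methylated cells at the intronic site was 18.6% in aged and 32.8% in young cells. The Srrm2 site lay 472 bases into the intron after exon 9, with 10 methylated aged cells (1.18%, 0.568 to 2.16) and 16 methylated young cells (0.610%, 0.349 to 0.989), and its intervals overlapped. How much of either intron was retained at each age was not measured.

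The sequence around the sites was likewise no part of the rule that chose the group. Whether the authors' site calling used it is not stated by the labels. The edited C followed an A at 42 of the 52 sites (80.8%, 67.5 to 90.4), against 24.6% (21.98 to 27.4) of the 999 other C bases within 100 bases of them. The A lay in DRAC at 37 sites (71.2%, 56.9 to 82.9), against 11.9% of those other C bases. Over all listed coding sites the values were 80.1% and 69.2%, and over the 1982 listed sites that read as a C they were 76.8% and 64.9%. All 4 lay within the group's intervals. DRAC leaves out H, the last position of DRACH. A G stood there at the group's 6 GAACG, 5 AAACG, 1 AGACG and 1 GGACG sites, which match DRAC but not DRACH. GAAC was the most frequent context, at 17 of the 52 sites (32.7%, 20.3 to 47.1), against 2.80% of the other C bases nearby and 31.2% of listed coding sites. At these 17 sites the median level within methylated cells was 15.6% in aged and 27.2% in young cells, and 1 of 17 had an aged level under 1%. At the 35 sites without GAAC the medians were 1.22% in aged and 10.7% in young cells, and 17 of 35 had an aged level under 1%. Among all listed coding sites with a methylated aged cell, 10 of 251 with GAAC (3.98%) and 148 of 546 without it (27.1%) were that low. GAAC sites also had the higher levels over all listed coding sites, though there the aged median stood above the young one, with medians of 55.7% in aged and 45.7% in young cells at 251 GAAC sites, and of 3.53% in aged and 17.0% in young cells at the other 553. At the 10 sites where the C did not follow an A, the medians were 0.688% in aged and 8.37% in young cells. Of these, 7 lay in Srrm2, 1 in Nktr and 2 in Pnisr, and 8 of the 10 had an aged level under 1%. Low aged levels were also frequent at all listed coding sites of this kind, at 65 of 159 (40.9%). The medians there were 1.43% in aged and 11.1% in young cells. Aged cells had the higher share at all 10, with a median ratio of 4.83, and at 41 of the 42 sites with C after A, with a median ratio of 5.17. The Srrm2 exon 5 site, with GTTCG and so no A before its C, had the second highest aged share of the 52. Whether the edits at the 10 sites without an A before the C reflect m6A was not tested.

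Other genes of nuclear speckles and of splicing were taken from a list of 104 genes, of which 23 had a listed site, 83 sites in all. Aged cells had the higher share at all 83, and the intervals lay apart at 71. The median share was 2.84% in aged and 0.762% in young cells. They had the higher C-to-U within methylated cells at 25 of the 83 sites and the higher mean at 51. Luc7l3, a U1-associated splicing factor, and the RS-related regulator Rbm25 had the largest differences in share, with 37.5% in aged and 8.92% in young cells at Luc7l3 and 17.97% in aged and 3.81% in young cells at Rbm25. The RNA-binding scaffold gene Hnrnpu had 8.75% in aged and 1.98% in young cells, and Luc7l2, also U1-associated, had 6.97% in aged and 1.79% in young cells. Snrnp70, a core U1 protein gene, had 4.96% in aged and 0.572% in young cells, and Gpatch8 had 5.91% in aged and 1.79% in young cells. Son, the other main scaffold of the speckle, had 2 sites, and the one with the larger difference had 3.19% in aged and 0.991% in young cells. It was named after its values were seen. The group's 10 genes and these 23 thus shared the direction of the share, which is also that of most listed coding sites.

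The genes most like the group were sought among 94 other genes with at least 4 listed sites that had a methylated aged cell. Likeness was the distance between a gene and the group in median log2 ratio of the share and in median difference of C-to-U within methylated cells, each scaled by its SD over genes. The group's values, as medians over its 10 genes, were 2.14 on the log2 scale and -2.52 points. Taken over its 52 sites, the medians were 2.33 and -5.50 points, and nearness to these was not computed. The nearest were the kinesin gene Kif1a, with 2.10 and -3.55 points over 15 sites, the noncoding RNA Meg3, with 1.88 and -2.74 points over 144 sites, and the AMPA receptor gene Gria3, with 2.33 and -3.80 points over 5 sites.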

How the data were processed

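C-to-U conversion in single cortex cells was measured in 8 aged libraries, pooled by the authors. Per the submitters' processing notes, reads were aligned with STAR 2.7.5 and the build was mm10; sites were called with Bullseye, per the series' design text. That text describes sorted NeuN-stained nuclei, while the sample protocols describe fixed whole cells in a Parse Biosciences split-pool kit, and the sample protocols were followed. The labels do not state read filters, depth normalisation or the authors' test.

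The authors' deposited table gives, per the file headers, for each site and age the percent of methylated cells, the average C-to-U fraction (printed here as percent) and the count of methylated cells. The headers do not say over which cells that average runs, and it was read here as over all cells. The level within methylated cells was computed as the mean divided by the share and rests on that reading. The deposited table also gives the authors' p-value and adjusted p-value and the log2 ratio of mean C-to-U as young over aged, whose sign was turned here. The deposited percentages imply the same cell number at every site of an age, apart from the 19 sites with no methylated aged cell.

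Positions were read as counted from 0 and are printed counted from 1: read so, all 52 sites are a C on the gene's strand. Regions are those of the best-supported GENCODE M21 transcript of the gene that has an exon at the site. Intervals are exact Clopper-Pearson (scipy 1.17.1, Python 3.11.15), and the summaries were tested on simulated data. No test of age was made, because cells of pooled libraries are not replicates. Such a test could also not have told age from series. The genes, lists and measures were chosen with earlier results of these data known. Sites were named by rule: each gene's largest difference in share, and the 5 largest and smallest differences of the group in share and in level; for the list of speckle genes, the 6 with the largest difference in share; and the 3 most alike genes. Sites named beyond these, such as neighbours, intronic sites and Son, were chosen after their values were seen. Alternatives changed the cell minimum, the adjusted p, the handling of close sites, the sequence context and the genes included.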

Additional observations from a re-analysis of the deposited data

How the results depend on the processing

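No paired analysis was possible because all 8 libraries carry 1 group and the table gives no value per library, so no library could be left out either. Over 18 alternatives each, the percent of sites higher in aged cells ran from 90.0% to 100% for the share of methylated cells, from 44.0% to 86.7% for mean C-to-U and from 10.4% to 40.0% for C-to-U within methylated cells. The share reached 100% without Pnisr (38 sites) and without Srrm2 and Pnisr (15 sites). With 1 site per gene the share was higher at 90.0% of 10 sites, the mean at 80.0% and the level within cells at 40.0%. The sites kept there were thus not all those printed above, at which the share was higher in all 10. Without Srrm2 and Pnisr the mean was higher at 86.7% and the level at 40.0% of 15 sites. This alternative and the one with only coding sites were chosen after seeing the data. Both settings with few sites drop most sites of the 2 genes by construction. The other alternatives stayed within the interval of the value as listed. The percent of coding sites ran from 94.7% to 98.0% and that of C after A from 71.2% to 89.7%, within their intervals in all 12 alternatives. Young shares at many sites rest on 7 to 14 methylated cells, and the read depth behind each level is unknown.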
